A study of Mus musculus with 12 samples.

Results

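The regions described here are stretches of open chromatin that lie inside the introns of protein-coding genes, away from any promoter, in mouse primary cortical neurons. Peaks from the 12 libraries that shared 1 bp or more were joined into 1 region, which gave 263785 regions. A region was kept when its centre lay in a protein-coding gene on chromosomes 1 to 19 but in no exon of any gene, and when the region was more than 1 kb from every annotated transcription start site. This left 99919 intronic regions, 37.9% of all regions. They were compared with 45098 promoter regions (within 1 kb of a start site), 9594 exonic regions and 95281 intergenic regions.

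Accessibility was measured by ATAC-seq, which relies on the Tn5 transposase cutting and tagging DNA that is not packed into nucleosomes. Neurons from embryonic day 18 C57BL/6 wild-type mice fell into 4 groups of 3 libraries. The PBS group received vehicle, and the PFF group received preformed fibrils of α-synuclein, the protein that aggregates in Parkinson's disease, with 7 days of exposure. The PFF+MLi-2 group received fibrils and, for 5 days, the compound MLi-2, which blocks the LRRK2 kinase. The PFF+Rab5 ASO group received fibrils and, for 3 days, antisense oligonucleotides (ASO) that target Rab5a and Rab5b, isoforms of the small GTPase Rab5 of early endosomes. All libraries carry the same batch label. The study's methods count each pregnancy as 1 biological replicate and state that its cultures were assigned to groups at random. The sources used here do not say which libraries came from which pregnancy. These samples include no group given oligonucleotides of another sequence, and the effect of carrying any oligonucleotide cannot be told apart from that of those against Rab5.

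Open chromatin inside introns often marks enhancers, short elements bound by transcription factors that raise transcription of their host gene or of another gene at a distance. In cortical neurons, such elements are known to hold sites for proneural basic helix-loop-helix factors, RFX and NFI factors, and AP-1, the dimer of FOS and JUN proteins that responds to activity and stress. Enhancers are more cell type specific than promoters, and long neuronal genes can hold many candidates in their introns.

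The windows below show the summit of 7 of these regions and 100 bp on each side, as the plus strand of GRCm38 from RefSeq. Hs3st4 and Tmem178b are regions that were higher with the Rab5 ASO, Grm4 and Ppm1h regions that were lower with it, Cd44 a region with peaks in PFF and none in PBS, Gabrg3 the opposite, and Nalcn a region that was high in every library. Capitals mark RFX letters (GTTGCC) in Tmem178b, an AP-1 site (TGANTCA) in Grm4 and Ppm1h, NFI letters (TTGGCA) in Cd44 and a TEAD site (GGAATG) in Gabrg3, on either strand. No letters are marked in Hs3st4 and Nalcn.
Hs3st4, chr7:124341237-124341437: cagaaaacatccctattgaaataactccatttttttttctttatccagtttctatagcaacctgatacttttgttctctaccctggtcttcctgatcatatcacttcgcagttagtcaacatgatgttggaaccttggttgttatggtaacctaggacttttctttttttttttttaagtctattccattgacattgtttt
Tmem178b, chr6:40129808-40130008: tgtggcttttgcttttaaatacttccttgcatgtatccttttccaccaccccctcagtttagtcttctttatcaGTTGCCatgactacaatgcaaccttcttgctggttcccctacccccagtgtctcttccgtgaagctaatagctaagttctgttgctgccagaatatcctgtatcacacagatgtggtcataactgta
Grm4, chr17:27500914-27501114: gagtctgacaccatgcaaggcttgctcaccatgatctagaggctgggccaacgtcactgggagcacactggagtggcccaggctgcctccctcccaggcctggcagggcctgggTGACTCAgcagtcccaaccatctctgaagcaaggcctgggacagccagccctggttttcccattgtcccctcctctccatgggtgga
Ppm1h, chr10:122718143-122718343: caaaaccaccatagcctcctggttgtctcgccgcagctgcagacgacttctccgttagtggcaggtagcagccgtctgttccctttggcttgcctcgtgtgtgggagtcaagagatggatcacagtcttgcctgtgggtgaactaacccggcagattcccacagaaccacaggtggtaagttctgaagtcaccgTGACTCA
Cd44, chr2:102884571-102884771: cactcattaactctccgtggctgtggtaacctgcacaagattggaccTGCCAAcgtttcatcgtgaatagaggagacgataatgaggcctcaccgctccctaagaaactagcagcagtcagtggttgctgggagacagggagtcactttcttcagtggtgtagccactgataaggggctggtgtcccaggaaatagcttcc
Gabrg3, chr7:57214201-57214401: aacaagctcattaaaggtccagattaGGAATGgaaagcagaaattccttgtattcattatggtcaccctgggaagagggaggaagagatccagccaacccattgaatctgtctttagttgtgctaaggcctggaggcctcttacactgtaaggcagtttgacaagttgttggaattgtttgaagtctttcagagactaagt
Nalcn, chr14:123513468-123513668: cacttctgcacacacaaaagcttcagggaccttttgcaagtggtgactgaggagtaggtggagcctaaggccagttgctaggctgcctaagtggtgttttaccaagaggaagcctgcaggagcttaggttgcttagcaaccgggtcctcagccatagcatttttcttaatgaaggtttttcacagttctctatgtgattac

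Most intronic regions were seen in only some of the libraries. Of the 99919, 22886 (22.9%) had a peak in all 12 libraries, against 27.5% of all regions and 46.6% of promoter regions, and 28451 (28.5%) had a peak in a single library. Intronic regions were narrow, with a median merged width of 141 bp against 144 bp for intergenic, 132 bp for exonic and 207 bp for promoter regions. The regions shared by all 12 libraries were the wide and high ones. Their median width was 318 bp and their median summit pileup, the number of fragments stacked at the highest point, was 22, against 66 bp and 11 for regions seen in 1 library. The absence of a peak says only that the region was not called in that library, not that it was closed.

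**Figure D1:**
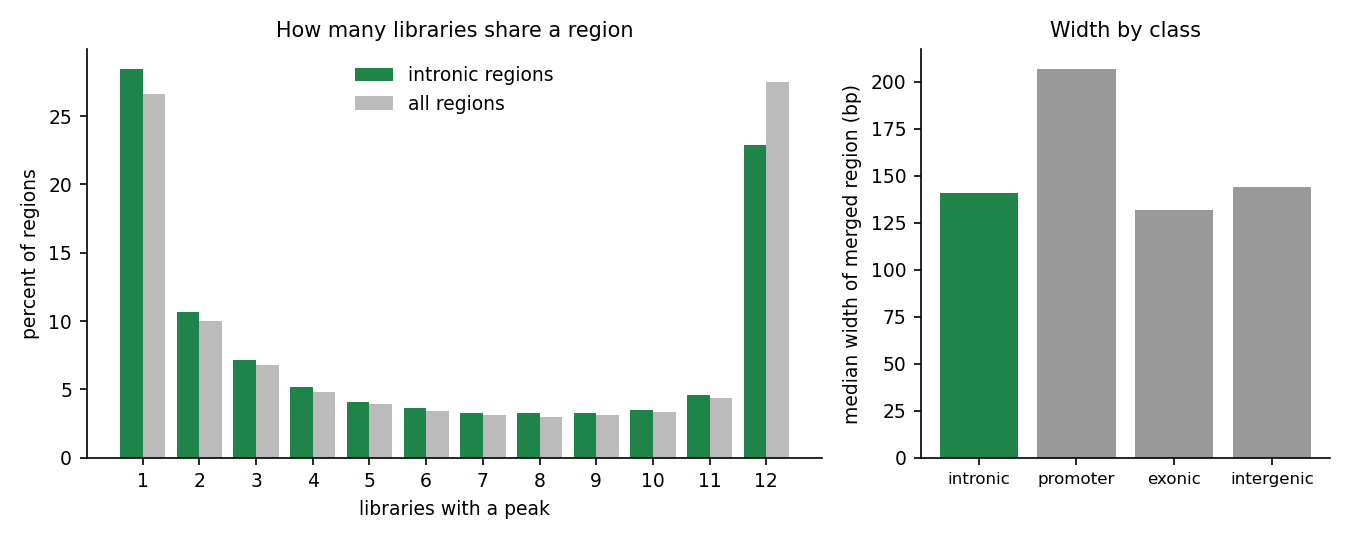
Left, the percentage of regions (y) with a peak in 1 to 12 libraries (x), for intronic regions (green) and all regions (grey). Right, the median width in bp of merged regions by class. Intronic regions fall short of all regions only at 12 libraries, 22.9% against 27.5%.

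In base composition the intronic regions stood close to intergenic regions. The median GC content of the 201 bp around the summit was 47.8%, against 46.8% in intergenic, 51.2% in exonic and 57.7% in promoter windows. An intronic window held 2.59 CpG dinucleotides on average and a promoter window 10.3. Only 3.35% of intronic windows were at least 50% soft-masked repeat.

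The height of a peak is given as fold over the local background, and the fold percentile is its rank within its own library. The median intronic peak ranked lower than the median intergenic peak in all 12 libraries, by 4.57 ± 1.25 percentile points (SD, n = 12, exact sign-flip permutation test, two-sided, adjusted p = 0.000732 over 6 differences). It was also narrower than the intergenic peak, by 3.83 ± 1.11 bp (adjusted p = 0.000732, same exact test). The gap to promoter peaks was wider, 18.8 ± 2.13 percentile points and 95.3 ± 6.08 bp. Against exonic peaks the intronic peaks ranked 2.32 ± 1.37 percentile points higher (adjusted p = 0.00234, exact test, above 0 in 10 of 12 libraries), while the width differed by 0.875 ± 1.51 bp, which did not pass (adjusted p = 0.0801, exact test). The smallest p that this test allows is 0.000488 before adjustment.

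Distance to a start site was bounded by the selection, which removed regions within 1 kb. The nearest start site lay 1 to 5 kb away for 21.8% of them, 5 to 20 kb for 39.6%, 20 to 100 kb for 33.7% and more than 100 kb for 5.0%. The share with a peak in all 12 libraries fell from 24.9% in the nearest bin to 18.5% in the farthest, and the median GC content from 49.2% to 44.8%. Of the 91720 regions that could be placed in an intron of the gene's principal transcript, 26.7% were in the first intron and 16.7% in the second. The median length of the introns that held them was 55.3 kb for the first and 15.6 kb from the third on.

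The regions were concentrated in long genes. They lay in 10206 of 20807 protein-coding genes, with a median of 4 per host gene. The 365 genes with 50 or more were the shortest host of 29.9% of the regions. Averaged over all introns the density was 11.2 regions per 100 kb. Among named genes, Fgfr2, a fibroblast growth factor receptor with a very long annotated span, held 448, Dab1, the adaptor of reelin signalling, held 221, Dlg2, a postsynaptic scaffold, held 220 and Csmd1 held 218. Asic2, an acid-sensing ion channel, held 211, Cdh13, a cadherin, 209, Tenm2, a teneurin adhesion protein, 199, and Ntm, an adhesion protein, 197. The gene model Gm20388, which spans many other genes, held 750.

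By density the order was different. Among genes with at least 50 kb of intron, the chloride channel-related gene Clic4 had 42.1 regions per 100 kb, the ETS repressor Elk3 had 41.7, Macrod1 41.3, and Ccdc88c 40.2. Fyn, a SRC-family tyrosine kinase, had 36.9 per 100 kb with 70 regions, and Mgll, the enzyme that degrades the endocannabinoid 2-AG, had 36.1. None of the long synaptic genes with the most regions reached these densities, since Dlg2 had 11.8 and Dab1 19.8.

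The gene lists showed the same contrast. Synaptic adhesion and scaffold genes held 1903 regions in 34 of 38 genes but only 8.59 per 100 kb, below the 11.2 over all genes. Glutamate and GABA receptor genes had 10.9 per 100 kb, axon guidance genes 11.9, voltage-gated channel genes 12.6 and lysosome and autophagy genes 12.8. Cortical neuron transcription factors had 14.6, senescence and TGF-beta genes 16.6 and calcium/calmodulin kinases 19.4. Activity-regulated genes are short, and the 25 of that list held 42 regions in all. Endosome and parkinsonism genes held 338 regions, 11.1 per 100 kb.

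Some intronic regions were high in every library. A region in intron 9 of Nalcn, the sodium leak channel of neurons (chr14:123513398-123513721), had a fold of 17.9, 18.0 and 17.2 in PBS, 19.6, 18.1 and 17.8 in PFF, 18.6, 18.4 and 17.4 in PFF+MLi-2, and 18.2, 16.3 and 16.1 in PFF+Rab5 ASO. The groups overlapped. Regions of Magi1, a synaptic scaffold (mean fold 17.4 ± 1.11, SD, n = 12), Gphn, the inhibitory synapse scaffold gephyrin (mean percentile 99.85), Nrxn3, a neurexin (16.9 ± 1.27), and Gpm6a, a neuronal membrane glycoprotein (16.8 ± 1.52), were of this kind. The intronic region with the highest mean percentile, at a mean fold of 29.4 ± 2.33 and only 125 bp wide, was in intron 1 of the cytokine receptor gene Il31ra. Its fold was 25.4, 28.1 and 25.8 in PFF+Rab5 ASO and 28.6 to 33.5 in the other libraries.

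The culture was checked against cell type markers through peaks at their start sites. All 8 neuron markers and all 6 excitatory neuron markers had such a peak in all 12 libraries, whereas none of 6 microglia markers did. Of the microglial genes, Cx3cr1 and Aif1 had none in any library. Csf1r had one in 7 libraries, C1qa in 6, Tmem119 in 5 and P2ry12 in 3. Markers with a peak in all 12 libraries numbered 5 of 6 for inhibitory neuron, 4 of 6 for astrocyte, 4 of 7 for oligodendrocyte lineage and 3 of 5 for endothelial or mural markers. The last were Flt1, Kdr and Pdgfrb, while the endothelial gene Pecam1 had no start-site peak in any library and Cldn5 had one in 1 library. In bulk chromatin, fewer cells of a type and less accessibility per cell cannot be told apart.

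Depth and fragment size differed between the groups. Depth relative to the mean library, estimated as the background of the peak list divided by the shortest peak, was 0.912 to 0.977 in PBS, 0.774 to 0.919 in PFF, 0.957 to 1.02 with MLi-2 and 1.05 to 1.31 with the Rab5 ASO. The shortest peak, which follows the fragment length the caller used, was 62 to 66 bp in the other groups and 53 to 59 bp in PFF+Rab5 ASO. The lists held 137417 to 184717 peaks, and 39680 to 56447 intronic regions had a peak in a given library. These values move with the Rab5 ASO comparisons below, and their part in the results was not tested.

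The median width of intronic peaks differed between the 4 groups. It was 133, 129 and 125 bp in PBS, 133, 136 and 135 bp in PFF, 133, 127 and 129 bp in PFF+MLi-2, whereas the Rab5 ASO libraries had 119, 123 and 113 bp. The groups differed (exact permutation test, 15400 partitions, adjusted p = 0.0145 over 4 measures). The PFF+Rab5 ASO libraries were below all others, as were their shortest peaks. When every library was cut to the same number of top peaks the difference in width was lost (adjusted p = 0.414, exact permutation test). The intronic share of open regions was 36.2 ± 0.254% in PFF against 35.4 ± 0.767% in PBS, 35.1 ± 0.226% with MLi-2 and 35.2 ± 0.224% with the Rab5 ASO (SD, n = 3). The PFF libraries lay above every library of the groups that also received MLi-2 or the ASO, and overlapped with PBS. The test over the 4 groups did not pass (exact permutation, adjusted p = 0.0871), and did with an equal number of top peaks (adjusted p = 0.00623). Neither the median fold nor the median fold percentile passed (both adjusted p = 0.0871, exact permutation). The smallest p for any pair of groups is 0.1.

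**Figure D2:**
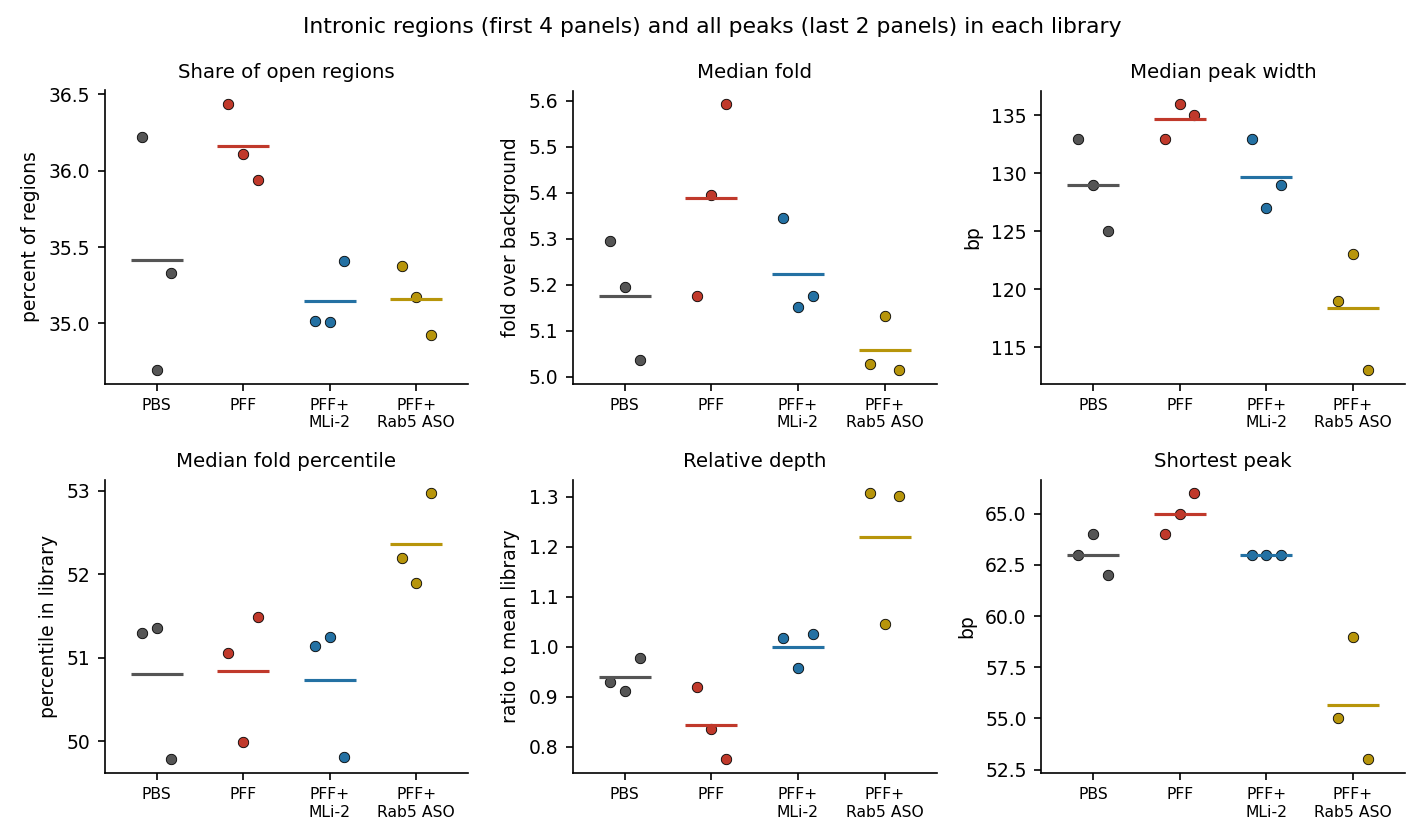
Each point is a library and each line a group mean. The first 4 panels show intronic regions (share in percent, median fold, median width in bp, median fold percentile), and the last 2 show relative depth and the shortest peak in bp over all peaks. The PFF+Rab5 ASO libraries have the narrowest intronic peaks, 113 to 123 bp, and the shortest peaks of all, 53 to 59 bp.

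The comparison of PFF with PBS asks whether fibrils alone changed these regions. No intronic region was called as changed in height rank. Ranks were turned into normal scores within each library and tested with limma in the 72465 regions called in every library, of which 22886 were intronic. The test called 0 intronic regions, and 0.0% of all regions higher and 0.0% lower. At an unadjusted p under 0.05 there were 2588 intronic regions (11.3%, against 9.72% of all regions). The mean score of a gene's intronic regions, tested in 2475 genes with 3 or more such regions, gave 0 calls as well, with 266 genes at an unadjusted p under 0.05. In simulated data with independent noise in each row, the region test recovered 63.5% of regions shifted by 2 normal-score units. It recovered 0% of those shifted by 1, so that in this setting smaller changes were missed region by region. The gene test recovered 95.5% of genes shifted by 1. The same number of rows was shifted in both, a far smaller part of the regions than of the genes. These rates therefore cannot be compared between the tests, and the real libraries can differ from them.

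Regions that appeared or disappeared were counted without a test. A gained region had a peak in all 3 PFF libraries and in no PBS library, and a lost region the reverse. PFF gained 1013 of the 81751 intronic regions with a peak in either group (1.24%, against 1.1% of all regions) and lost 348 (0.426%, against 0.405%). Gains outnumbered losses among intronic regions, as they did over all regions. These regions were of modest height, with a median summit pileup of 13 where gained and 12 where lost. Of the 17 motifs searched within 100 bp of the summit on both strands, those with the widest gaps between gained and lost regions were picked after their values were seen. The E-box CAGCTG was in 22.6% of gained and 12.9% of lost regions, against 17.9% of all intronic regions, and AP-1 (TGANTCA) in 15.5% and 10.1%, against 11.9%. The E-box CAGATG was in 24.7% of gained regions, close to the 24.1% of all intronic regions, and in 17.8% of lost regions. The homeobox core (TAATTA) was in 3.95% of gained and 12.9% of lost regions, against 8.36%. TEAD letters (GGAATG) were in 11.5% of gained regions, close to the 12.3% of all intronic regions, and in 19.3% of lost regions. The E-box CACGTG, bound by TFEB, USF and related factors, was in 5.73% of gained and 1.72% of lost regions, the latter only 6 regions, against 3.29%. PBS replicate 1 had the most intronic regions of its group, 56447, and without it the gained count was 2547. PBS replicate 2 had the fewest, 39680, and without it the lost count was 1358.

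Cd44, the hyaluronan receptor of adhesion and inflammation, held a gained region in its first intron (chr2:102884540-102884738). The fold there was 5.83, 7.4 and 6.41 in PFF and 5.63, 6.65 and 4.91 in PFF+Rab5 ASO, with no peak in any PBS or PFF+MLi-2 library. The peaks were thus in 6 of 12 libraries, those of 2 whole groups. Epb41l2, a membrane skeleton protein, held a region with a fold of 5.86, 8.09 and 6.39 in PFF, no peak in PBS or PFF+MLi-2, and 5.33 and 4.29 in replicates 2 and 3 of PFF+Rab5 ASO. A region of P2rx7, the ATP-gated channel of purinergic signalling, had 5.49, 7.68 and 6.79 in PFF, a peak in 1 PFF+MLi-2 library (4.69), and 5.7, 4.97 and 4.62 in PFF+Rab5 ASO. It had no peak in PBS. Some other gained regions were called with MLi-2 too. The highest by PFF percentile, in Fbxo42, had a fold of 7.4, 8.43 and 7.89 in PFF and 4.42 in PFF+MLi-2 replicate 3. At Gas7 every PFF+MLi-2 library had a call, at 4.86, 3.93 and 4.75 against 6.16, 7.24 and 6.64 in PFF. Eml5 had a call in PFF+MLi-2 replicate 3 (4.14) and Rec114 in replicates 1 and 2 (4.16 and 3.97), whereas Seh1l had none.

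Gabrg3, a GABA-A receptor subunit, held the lost region with the highest percentile (intron 3, chr7:57214156-57214379). Its fold was 6.98, 6.63 and 5.76 in PBS, 6.94, 5.77 and 6.9 in PFF+MLi-2, and 6.75, 5.68 and 4.29 in PFF+Rab5 ASO, and no PFF library had a peak there. Csgalnact1, an enzyme of chondroitin sulfate synthesis, held a region with 6.25, 7.73 and 5.4 in PBS and 5.9, 6.13 and 4.83 in PFF+MLi-2, without a peak in the other groups. Mkln1, muskelin, held a region called in every library but the 3 of PFF, at 6.98, 5.89 and 6.12 in PBS.

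Over all 99919 intronic regions, 1.01% were gained and 0.348% lost. Synaptic adhesion and scaffold genes had 15 gained and 10 lost of 1903, voltage-gated channel genes 16 and 2 of 1507, axon guidance genes 10 and 4 of 1250, and glutamate and GABA receptor genes 5 and 4 of 1229. Cortical neuron transcription factors had 4 and 0 of 862. Lysosome and autophagy genes had 5 and 1 of 259, endosome and parkinsonism genes 3 and 3 of 338, and activity-regulated genes none of 42. Senescence and TGF-beta genes had 3 gained (1.16%) and 3 lost (1.16%) of 258, and calcium/calmodulin kinase genes 5 gained (1.52%) and 0 lost of 329. These shares carry no test.

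The comparison of PFF+MLi-2 with PFF asks what the kinase inhibitor changed in neurons with fibrils. The limma test called 0 intronic regions, with 0.0% of all regions higher and 0.0% lower, and 3070 intronic regions (13.4%, against 11.4% of all regions) at an unadjusted p under 0.05. It called 0 of 2475 genes, with 318 at an unadjusted p under 0.05. MLi-2 gained 319 of 77161 intronic regions (0.413%, against 0.374% of all) and lost 1474 (1.91%, against 1.64%). With every library cut to the same number of top peaks the counts were 521 gained and 858 lost. Losses outnumbered gains under both, by a smaller margin in the latter.

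Regions lost with MLi-2 lay in the introns of Zfat, Tln2, the talin that links integrins to actin, Rufy3, Wdr27, Cd44 and Epb41l2. The Tln2 region had a fold of 6.9, 7.42 and 6.61 in PFF, no peak in PFF+MLi-2, 4.05 and 3.96 in PBS replicates 2 and 3, and 4.18 in 1 PFF+Rab5 ASO library. The Zfat region had 6.59, 7.32 and 7.19 in PFF and no peak in PFF+MLi-2. It also had 4.78 and 6.12 in PBS replicates 1 and 3, and 4.5 and 4.26 in PFF+Rab5 ASO replicates 1 and 2. Adk, adenosine kinase, held the gained region with the highest percentile. Its fold was 8.32, 7.22 and 7.55 in PFF+MLi-2, 5.66, 5.08 and 5.4 in PBS, and 5.12, 4.97 and 3.63 in PFF+Rab5 ASO, with no peak in PFF. The PFF+MLi-2 libraries were above all others at Adk. Shares of the same motifs are read against those of all intronic regions given above. CAGCTG was in 24.0% of lost and 12.2% of gained regions (17.9% of all), AP-1 in 14.8% and 9.72% (11.9%), and CAGATG in 28.6% and 12.9% (24.1%). CACGTG was in 5.77% of lost and 0.94% of gained regions, the latter 3 regions (3.29%). The homeobox core was in 5.63% of lost regions and, near the share of all, in 8.15% of gained regions (8.36%), and TEAD letters were near it in lost regions, at 11.1%, and at 19.4% in gained regions (12.3%). These counts share the PFF libraries with the comparison to PBS.

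Against PBS, PFF+MLi-2 had 0 intronic regions called by limma (0.0% of all regions higher, 0.0% lower), with 1492 (6.52%, against 5.77%) at an unadjusted p under 0.05, and 0 of 2475 genes, with 137 at an unadjusted p under 0.05. It gained 178 intronic regions (0.238%, against 0.225%) and lost 446 (0.598%, against 0.577%). Those gained included regions in Dnajc6, the clathrin-uncoating cofactor auxilin, Cadps, Rora and Nalcn, and those lost included regions in Plxna2, Insr, the insulin receptor, and Frmd4b.

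**Figure D3:**
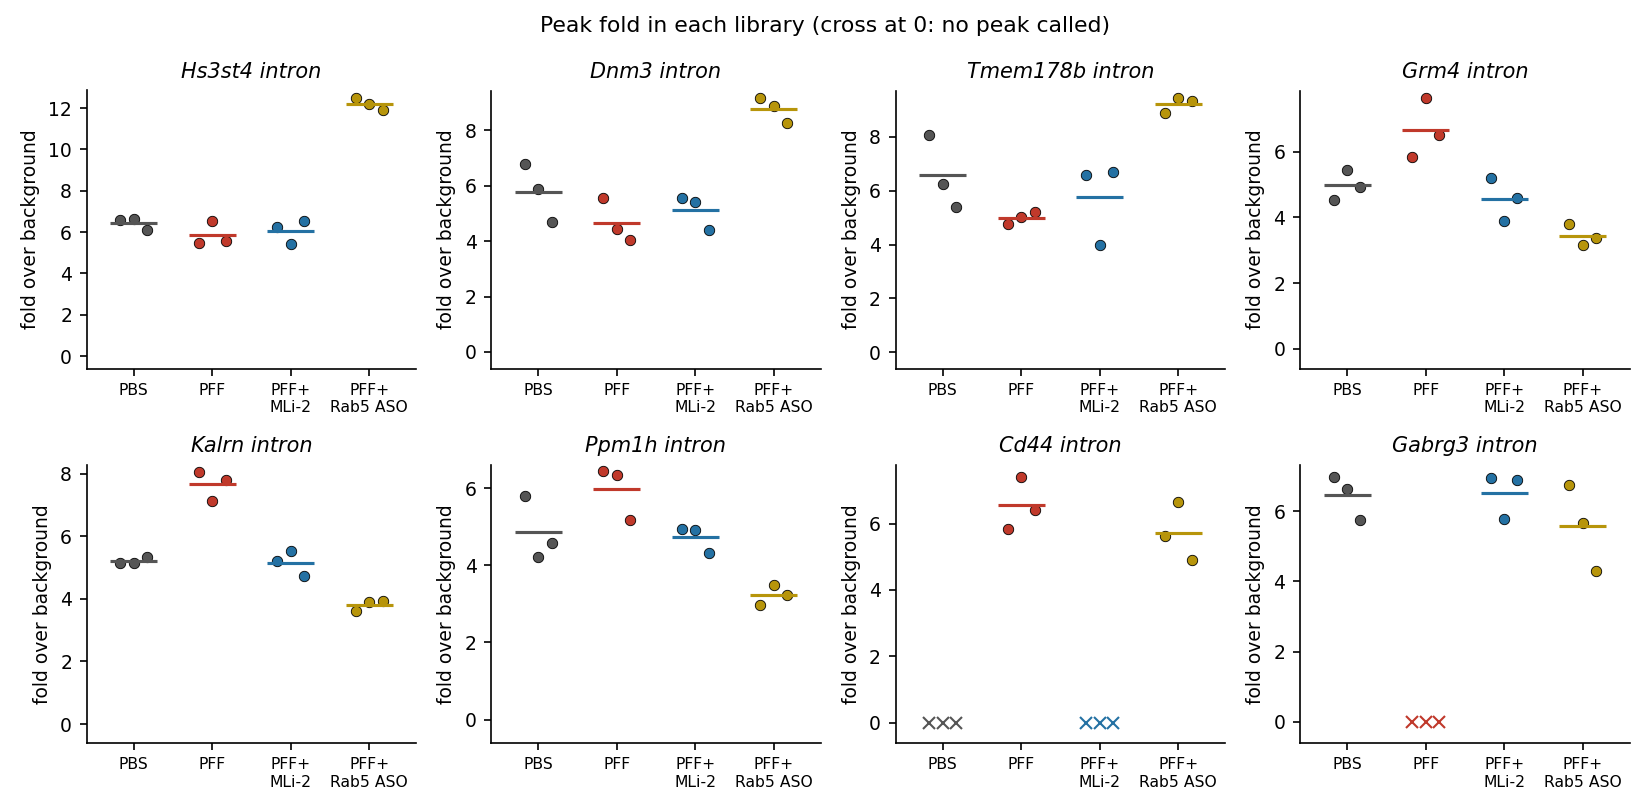
Fold over background (y) in each of the 12 libraries for 8 intronic regions, by group. Points are libraries, lines are means of groups with a peak in all 3, and crosses at 0 mark libraries without a called peak. Hs3st4, Dnm3 and Tmem178b are high in PFF+Rab5 ASO, Grm4, Kalrn and Ppm1h are low there, and Cd44 and Gabrg3 have groups without a peak.

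The comparison of PFF+Rab5 ASO with PFF gave changed intronic regions in both directions. Limma called 503 of 22886 intronic regions higher (2.2%, against 1.97% of all regions) and 596 lower (2.6%, against 1.86%). The share called higher was close to that of all regions. The counts rested on all 6 libraries: without PFF+Rab5 ASO replicate 1 no intronic region was called, and without any of the others 134 to 397 were. The 503 higher regions had a median GC content of 43.8% and the 596 lower regions 50.8%, against 49.8% of all intronic regions tested. When scores were ranked within 10 bins of GC content, 466 regions were called, with the replicate number as a block 664, and with both together 0, so that each region named below lost its call in that fit (limma adjusted p of 0.0822 or more).

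The regions named next are among those with the largest rise. Hs3st4, which encodes a heparan sulfate sulfotransferase, held the region with the largest rise, 151 kb from the nearest start site (chr7:124341200-124341496). Its fold was 5.49, 6.55 and 5.59 in PFF and 12.5, 12.2 and 11.9 in PFF+Rab5 ASO, while PBS had 6.61, 6.63 and 6.12 and PFF+MLi-2 6.24, 5.41 and 6.55 (effect 2.44 ± 0.209 normal-score units, SE, limma adjusted p = 0.0152). The 3 PFF+Rab5 ASO libraries were above all 9 others. This region has the lowest GC content of those printed, 33.3%.

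Dnm3, a dynamin that severs vesicles from membranes, held a region in intron 14 (chr1:162187301-162187627). It had a fold of 5.54, 4.44 and 4.03 in PFF and 9.18, 8.88 and 8.25 in PFF+Rab5 ASO (effect 2.201 ± 0.276, limma adjusted p = 0.0152). The region of Tmem178b (chr6:40129774-40130018), which holds the RFX letters printed above, had 4.76, 5.01 and 5.19 in PFF and 8.89, 9.44 and 9.33 in PFF+Rab5 ASO. PBS overlapped neither, at 8.08, 6.26 and 5.4, and the effect was 2.09 ± 0.196 (limma adjusted p = 0.0152). Regions of Cntn1, the adhesion protein contactin 1 (effect 2.15 ± 0.336), Trhde, a peptidase that degrades TRH (2.12 ± 0.294), Stxbp6, a SNARE-binding protein (2.06 ± 0.255), and Xpr1, a phosphate exporter (2.02 ± 0.266), rose as well. All 4 were called without each of at least 4 libraries in turn.

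Kalrn, a signalling protein of dendritic spines, held a region in intron 33 (chr16:34157795-34157963) with a fold of 8.07, 7.13 and 7.79 in PFF and 3.61, 3.91 and 3.94 in PFF+Rab5 ASO. PBS had 5.15, 5.15 and 5.35, and PFF+MLi-2 5.2, 5.54 and 4.74 (effect -1.995 ± 0.215, limma adjusted p = 0.0152). Here the PFF libraries were the highest, those of PFF+Rab5 ASO the lowest, and the other groups lay between them. Grm4, a metabotropic glutamate receptor (chr17:27500918-27501136), held a region with an AP-1 site in the second intron. It had 5.85, 7.64 and 6.51 in PFF and 3.8, 3.15 and 3.36 in PFF+Rab5 ASO (effect -1.98 ± 0.262, limma adjusted p = 0.0152). Ppm1h, a phosphatase known to reverse the phosphorylation of Rab proteins by LRRK2, held a region in the first intron, also with an AP-1 site (chr10:122718150-122718390). It had 6.43, 6.33 and 5.17 in PFF and 2.96, 3.48 and 3.22 in PFF+Rab5 ASO, against 5.79, 4.21 and 4.57 in PBS (effect -1.89 ± 0.252, limma adjusted p = 0.0152). Regions of Ptprb (effect -2.10 ± 0.299), the phosphatase Cdc14a (-1.997 ± 0.300), the ETS factor Elf2 (-1.95 ± 0.435), Ascc1 (-1.89 ± 0.267) and the coactivator Eya1 (-1.89 ± 0.289) were lower too. The Elf2 call held in only 1 of the 6 fits with a library removed.

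Motif letters differed between the higher and the lower regions. Of 17 motifs searched on both strands within 100 bp of the summit, AP-1 (TGANTCA) was found in 143 of 596 lower regions (24.0%) and in 45 of 503 higher regions (8.95%), against 11.1% of tested intronic regions and 8.84% of all tested regions (10.8% of all regions, tested or not). The E-box CAGATG of proneural factors was in 40.6% of lower and 23.1% of higher regions, against 25.5%. The RFX letters (GTTGCC) went the other way, with 21.9% of higher and 7.55% of lower regions against 12.1%, and so did the homeobox core (TAATTA), with 16.7% and 3.52% against 7.94%. Among the regions called after ranking within GC bins, AP-1 was in 23.0% of lower and 5.26% of higher regions, RFX in 7.39% and 26.8%, and the homeobox core in 4.28% and 14.4%. Over regions of every class the shares were alike, with AP-1 in 24.7% of lower and 7.15% of higher regions. These shares are descriptions, and a match is not a bound site.

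**Figure D4:**
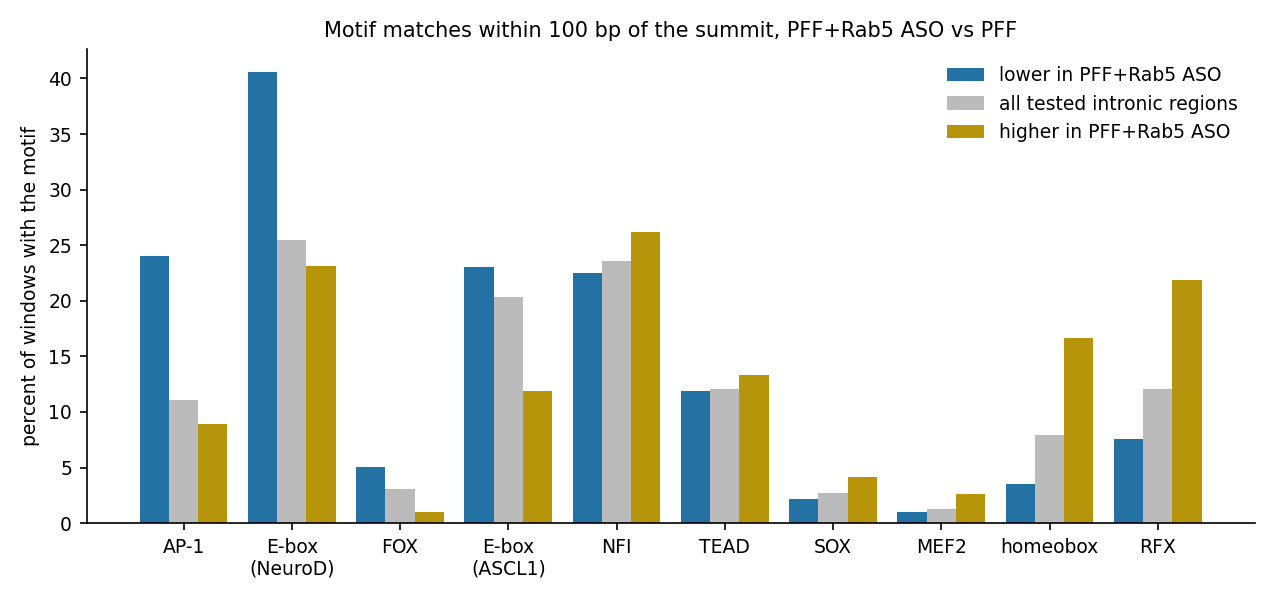
Percentage of windows (y) that hold each motif, for intronic regions lower in PFF+Rab5 ASO than in PFF (blue), all tested intronic regions (grey) and intronic regions higher (yellow). AP-1 reaches 24.0% in the lower set and 8.95% in the higher set, and RFX 7.55% and 21.9%.

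Gained and lost regions were more numerous here than in the comparisons above. PFF+Rab5 ASO gained 2273 of 86453 intronic regions (2.63%, against 2.64% of all regions) and lost 2057 (2.38%, against 1.94%). The median GC content was 40.8% where gained and 49.8% where lost. AP-1 letters were in 24.2% of the lost and 7.35% of the gained regions, against 11.9% of all intronic regions, and homeobox letters in 69 of 2057 and 432 of 2273, against 8.36%. Regions of Ptprz1, a receptor phosphatase of the brain, P3h2 and Fhit had peaks in the 3 PFF+Rab5 ASO libraries alone. The Ptprz1 region (chr6:22941886-22942232) had a fold of 7.45, 7.82 and 8.18. Slc16a10, an amino acid transporter, held the gained region with the highest percentile, at 8.99, 7.81 and 8.25 with the Rab5 ASO, no peak in PFF, and 6.25, 5.52 and 5.76 in PBS. The region of Asap2, an Arf GTPase-activating protein, had peaks in the 9 other libraries, at 7.69, 10.4 and 7.99 in PFF, and none with the Rab5 ASO.

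Peaks found in 1 whole group and in no other library were counted over all 12 libraries. They numbered 1138 intronic regions (1.14%, against 1.14% of all regions) for PFF+Rab5 ASO, 257 (0.257%, against 0.202%) for PFF, 21 (0.021%, against 0.0193%) for PFF+MLi-2 and 18 (0.018%, against 0.0254%) for PBS. Regions with peaks in the 9 other libraries but none in the group numbered 231 (0.231%, against 0.183%) for PFF+Rab5 ASO, 55 (0.055%, against 0.0542%) for PFF+MLi-2, 18 (0.018%, against 0.014%) for PFF and 9 (0.00901%, against 0.0121%) for PBS. The PFF+Rab5 ASO group stood apart most, intronic or not, and it was also the deepest group.

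Averaged by gene, the Rab5 ASO comparison gave 50 genes whose intronic regions were higher than in PFF and 93 that were lower, which is 2.02% and 3.76% of the 2475 tested. When every class of region was grouped by gene, 6474 groups in all, 3.15% were called higher and 3.06% lower, so that the intronic share was the smaller for higher genes and the larger for lower genes. Of the 143 genes, 26 (10 higher and 16 lower) were called with each of the 6 libraries left out in turn, and 41 to 66 genes were called in each of those fits. With scores ranked within GC bins, 35 of the 50 and 62 of the 93 were called again. With GC bins and a block on replicate number together, 21 of the 50 and 44 of the 93 were. A fit that blocked on replicate number alone called 62 genes in all. Being called in all fits without a library does not imply a call in these fits. Values below are means of normal scores, where 0 is the middle of all regions of a library.

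Among higher genes, Fshr, the receptor of follicle-stimulating hormone, had -1.09, -1.22 and -0.81 in PFF and 0.04, -0.06 and 0.35 in PFF+Rab5 ASO over 3 regions (effect 1.15 ± 0.140, limma adjusted p = 0.00967). Fgf14, which binds and tunes voltage-gated sodium channels, had 0.01, -0.15 and -0.45 in PFF and 0.75, 0.57 and 0.69 in PFF+Rab5 ASO over 6 regions, with PBS at 0.21, 0.02 and 0.02 (effect 0.87 ± 0.128, limma adjusted p = 0.0116). Stau2, which carries RNA into dendrites, had -0.61, -0.47 and -0.66 in PFF and -0.02, 0.13 and 0.33 in PFF+Rab5 ASO (effect 0.73 ± 0.116, limma adjusted p = 0.0127). These 3 genes were called in all 6 fits without a library, as were Zfp277, Pkd1l2, Macc1, Uaca, Neb, Ncoa1 and Focad.

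Among lower genes, Fkbp5, a co-chaperone of the glucocorticoid receptor, had 0.31, 0.35 and 0.3 in PFF and -0.56, -0.35 and -0.72 in PFF+Rab5 ASO (effect -0.86 ± 0.114, limma adjusted p = 0.0102). Specc1 had 0.63, 0.74 and 0.48 in PFF and -0.07, 0.0 and -0.13 in PFF+Rab5 ASO over 8 regions, with PBS at 0.38, 0.38 and 0.68 (effect -0.68 ± 0.105, limma adjusted p = 0.0126). Plxnd1, a semaphorin receptor, had -1.3, -1.09 and -1.37 in PFF and -2.18, -1.8 and -2.0 in PFF+Rab5 ASO (effect -0.74 ± 0.125, limma adjusted p = 0.0127). At each of these genes the PFF+Rab5 ASO libraries were below all 9 others. Bmpr2, a BMP receptor, Adora1, the adenosine A1 receptor, Arhgef12, a guanine nucleotide exchange factor, Hspg2, the matrix proteoglycan perlecan, Uggt2, a sensor of glycoprotein folding, and Creb3l2 were lower and were called in all 6 fits without a library, as were Cfap77, Tspan11, Osbpl2, Lrch3, Gna12, Aox2 and Col13a1.

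**Figure D5:**
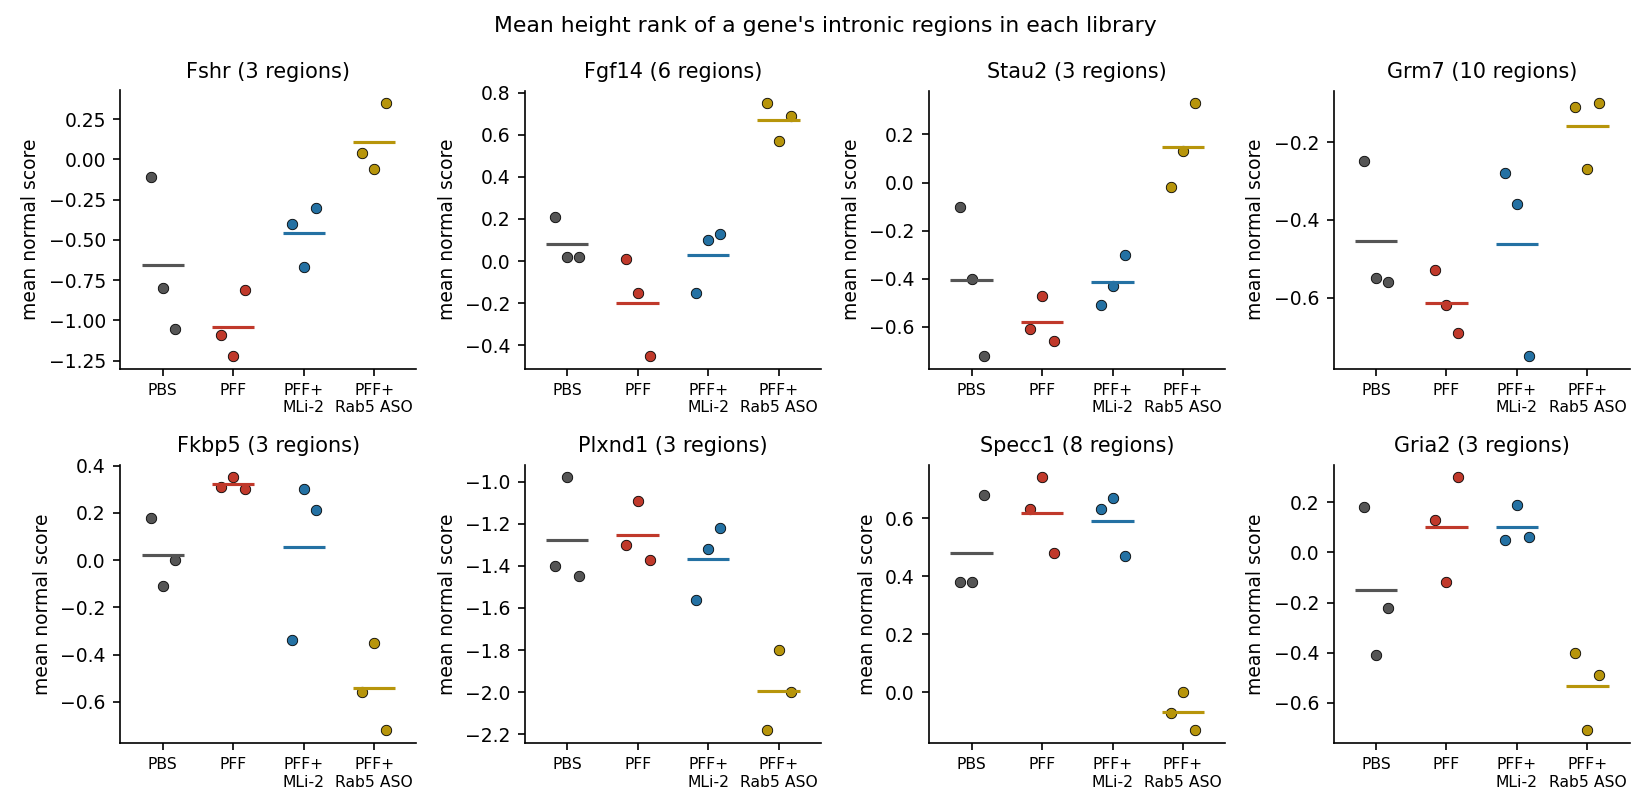
Mean normal score (y) of the intronic regions of 8 genes in each library, by group, with group means as lines and the number of regions in each title. Fshr, Fgf14, Stau2 and Grm7 are higher in PFF+Rab5 ASO than in PFF, and Fkbp5, Plxnd1, Specc1 and Gria2 are lower.

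Few genes of the lists passed at this level, and those named here are examples. Of 23 glutamate and GABA receptor genes tested, Grm7, a presynaptic glutamate receptor, was higher (effect 0.45 ± 0.102, limma adjusted p = 0.0319) and Gria2, the AMPA receptor subunit that limits calcium entry, was lower (-0.64 ± 0.131, limma adjusted p = 0.0234). Of 26 voltage-gated channel genes, the potassium channel Kcnh7 was higher (0.46 ± 0.102, limma adjusted p = 0.0299). Plxnd1 was the only one of 32 axon guidance genes to pass. Grm7, Gria2 and Kcnh7 each lost the call in at least 4 of the 6 fits without a library, Grm7 and Kcnh7 also lost it with the replicate block (both limma adjusted p = 0.0578), and Kcnh7 with GC bins (limma adjusted p = 0.0684). None of 26 synaptic adhesion and scaffold, 15 transcription factor, 6 lysosome and autophagy, 4 endosome and parkinsonism, 7 senescence and TGF-beta and 10 calcium/calmodulin kinase genes passed.

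Single regions in listed genes changed in both directions, with shares mostly near the 2.2% higher and 2.6% lower of all tested intronic regions. Synaptic adhesion and scaffold genes had 11 higher (3.16%) and 8 lower (2.3%) of 348 tested, and voltage-gated channel genes 9 (3.05%) and 8 (2.71%) of 295. Axon guidance genes had 9 higher (3.14%) and 4 lower (1.39%) of 287, and cortical neuron transcription factors 7 (3.41%) and 4 (1.95%) of 205. Glutamate and GABA receptor genes had 6 higher (2.43%) and 11 lower (4.45%) of 247. Plxna4, a semaphorin receptor, had 3 higher and Ptprd, a synaptic receptor phosphatase, 3 lower. Among 56 regions in lysosome and autophagy genes 1 was higher, in Atg10. Over all 99919 intronic regions, 2.27% were gained and 2.06% lost. Synaptic adhesion and scaffold genes had 83 gained (4.36%) and 15 lost (0.788%) of 1903, glutamate and GABA receptor genes 34 (2.77%) and 23 (1.87%) of 1229, and calcium/calmodulin kinase genes 4 (1.22%) and 11 (3.34%) of 329. These shares carry no test.

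Against PBS, the PFF+Rab5 ASO libraries, which both comparisons share, had 239 intronic regions called higher (1.04%, against 1.0% of all regions) and 202 lower (0.883%, against 0.631%) by limma. This comparison held less firmly, since 0 to 10 intronic regions were called when any library was left out, and 0 when the fit blocked on replicate number (limma adjusted p of 0.0736 or more for the regions named below). It gained 2230 regions (2.64%, against 2.59%) and lost 1000 (1.18%, against 0.991%). At Hs3st4 the effect was 1.97 ± 0.214 (limma adjusted p = 0.0207). A pair of regions in intron 10 of Nfia, a nuclear factor I gene, went in opposite directions. The region at chr4:98102672-98102914 had a fold of 4.82, 3.9 and 3.88 in PBS and 9.15, 8.4 and 7.78 in PFF+Rab5 ASO, with PFF between them at 7.21, 6.57 and 5.97 (effect 2.33 ± 0.228, limma adjusted p = 0.0205). The region at chr4:98099510-98099753 had 10.7, 8.39 and 8.52 in PBS and 4.68, 5.41 and 3.95 in PFF+Rab5 ASO (effect -1.98 ± 0.274, limma adjusted p = 0.0268). A region of Rora, an orphan nuclear receptor, had 4.78, 4.79 and 4.32 in PBS, 7.69, 7.71 and 10.4 in PFF, and 10.3, 8.88 and 8.33 in PFF+Rab5 ASO (effect 2.16 ± 0.233, limma adjusted p = 0.0207).

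By gene, 25 were higher and 22 lower than in PBS, of 2475 tested, while over the 6474 groups of every class 1.39% were higher and 0.695% lower. Each of these genes but 1 lost the call whenever any library was left out. Fgf14 (0.58 ± 0.108, limma adjusted p = 0.0413) and Kcnh7 (0.50 ± 0.0975, limma adjusted p = 0.0413) were higher, and Plxnd1 (-0.72 ± 0.150, limma adjusted p = 0.0456) and Specc1 (-0.55 ± 0.116, limma adjusted p = 0.0456) lower, as against PFF. Bcl11a, a transcription factor of cortical neurons, was lower against PBS (-0.50 ± 0.106, limma adjusted p = 0.0456). With the replicate block Kcnh7 (limma adjusted p = 0.0608), Specc1 and Bcl11a (both limma adjusted p = 0.0651) lost the call. With GC bins, 8 of the 25 and 8 of the 22 genes were called again. With GC bins and the block together 0 were, so that Fgf14 and Plxnd1 lost the call there too.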

How the data were processed

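ATAC-seq libraries of mouse cortical neurons (4 groups of 3) were analysed from the peak list of each library. The authors' processing notes name Trim Galore 0.6.7 for trimming, Bowtie2 2.5.1 for alignment (GRCm38) and MACS2 2.2.7.1 for peaks, which were called per library. No control library, treatment of duplicates or Tn5 shift is given in the sources used here. The deposited lists hold, per peak, the fold (a ratio of summit pileup to local background), -log10 of the p-value and of the q-value, and a score, which the authors' caller derives from -log10 q. Whole-number summit pileups were recovered from fold and -log10 p for 100% of peaks (tolerance 0.001), and depth relative to other libraries from the background, but total reads are not known. The intervals and errors therefore reflect the spread between libraries only.

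Peaks overlapping by at least 1 bp were merged, and regions annotated with GENCODE vM21 (GRCm38). Distance to a start site was taken from the edge of the region. A region in several genes was given to the shortest for its description and for the gene fits. The number and density of regions per gene count it in each gene that holds it. Gene spans that overlap make the host uncertain. Sequence came from RefSeq GRCm38.p6. Fold ranks within each library over 72465 regions were turned into normal scores and tested with limma 3.58.1 (R 4.3.3), with Benjamini-Hochberg adjustment over all regions (or all 2475 genes with at least 3 intronic regions) and calls at an adjusted p under 0.05. Only the 6 libraries compared entered a fit. The other tests were exact permutations over libraries (scipy 1.17.1). Tests were run on simulated data before use. The regions, gene lists and motifs were chosen with earlier results of these data known. Named regions and genes were those with the largest effect among calls, the highest percentile among gained, lost and all regions, the most intronic regions, and list members. Alternatives were GC bins, a replicate block, log2 fold, ranks of -log10 p, equal numbers of top peaks, q of at most 0.001, a 50 bp overlap, and leaving out each library. Peaks on scaffolds (1440) entered the fits and could not be members. The descriptions of some samples name PBS where titles and treatment labels name PFF, and the latter were used. Some items are not reported here.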

Additional observations from a re-analysis of the deposited data

How the results depend on the processing

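For PFF+Rab5 ASO vs PFF, the 1099 intronic regions with a changed height rank became 664 with a replicate block, 466 with GC bins, 0 with both, and 0 to 397 without 1 library. The 143 genes became 62 with the replicate block, 85 with GC bins and the block together, and 41 to 66 without 1 library. For PFF+Rab5 ASO vs PBS, the 441 regions became 0 with the replicate block, 134 with GC bins, 0 with both, 954 with log2 fold, 143 with ranks of -log10 p, and 0 to 10 without 1 library, and the 47 genes became 19 with GC bins, 0 with GC bins and the block, 82 with log2 fold, and 0 to 2 without 1 library. For PFF vs PBS, 0 or 1 genes were called without 1 library. The cause of these shifts was not tested. Deviations of same-numbered libraries correlated at 0.00513 to 0.0788, positive in every pair of groups but under 0.1, and no source used here ties a number to a pregnancy, so whether the numbers pair the libraries is not known.

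Requiring 2 libraries in place of 3 raises gained and lost counts by construction. Without 1 library the ranges were 1355 to 2547 gained and 491 to 1358 lost for PFF vs PBS, 466 to 782 and 2262 to 3159 for PFF+MLi-2 vs PFF, 2679 to 3650 and 2448 to 3720 for PFF+Rab5 ASO vs PFF, 283 to 784 and 724 to 1873 for PFF+MLi-2 vs PBS, and 2581 to 4236 and 1248 to 2629 for PFF+Rab5 ASO vs PBS. With an equal number of top peaks, PFF+MLi-2 vs PFF had 521 gained and 858 lost, and PFF+MLi-2 vs PBS 299 gained. The adjusted p over the 4 groups for the intronic share became 0.00623 with equal top peaks and 0.0342 to 0.234 without 1 library, that for the median fold 0.0338 to 0.243 without 1 library, that for the width 0.414 with equal top peaks, and that for the fold percentile 0.00338 with q of at most 0.001. No result of the settings run reversed. Peaks near the calling limit, at a summit pileup of about 11, set what can be seen as gained or lost.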
